A study of Mus musculus with 36 samples.

Results

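Multiple myeloma is a plasma cell cancer, and its treatment is directed at a small set of proteins that plasma cells carry. The 10 mouse genes described here encode the mouse counterparts of those proteins: Tnfrsf17 (BCMA), Tnfrsf13b (TACI), Sdc1 (syndecan-1, CD138), Slamf7, Cd38, Gprc5d, Fcrl5, Crbn (cereblon), Ikzf1 (Ikaros) and Ikzf3 (Aiolos). They were taken from a named list that was chosen with earlier results of these data known. They are 10 of the 54203 genes with a transcript in the files. The 36 RNA libraries were made from plasma cells of mice labelled C57/BL6, sorted from bone marrow as reporter-positive cells with CD138 and TACI on the surface, 2000 cells to a library. In the D cohort, 4 libraries came from Control(D), 4 from Ccnd1, 4 from Ikk2ca(D) and 6 from Ccnd1-Ikk2ca, which carries both transgenes. In the M cohort, 4 came from Control(M), 4 from MMSET, 4 from Ikk2ca(M) and 6 from MMSET-Ikk2ca. Ccnd1 encodes cyclin D1, MMSET is the histone methyltransferase of the gene Nsd2, and Ikk2ca is a transgene of the NF-kappaB kinase IKK2, encoded by Ikbkb. The promoter or recombinase that drives each transgene, the alleles that controls share with the transgenic groups, treatment, and the age and sex of the mice are not given in the sources used here. Nothing in the labels says that the libraries of a group came from separate mice, so each p-value measures the spread between libraries, which may be technical.

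BCMA and TACI are receptors of the tumour necrosis factor receptor superfamily that bind the cytokines BAFF and APRIL. BCMA supports the survival of long-lived plasma cells in bone marrow and is the target of CAR T cells, bispecific antibodies and antibody-drug conjugates. Syndecan-1 is a heparan sulfate proteoglycan widely used as a surface marker of plasma cells, and SLAMF7 and CD38 are the targets of the antibodies elotuzumab and daratumumab. GPRC5D, an orphan receptor, and FCRL5, an Fc receptor-like protein of B lineage cells, are targets of bispecific antibodies. Cereblon acts inside the cell as the substrate receptor of the CRL4 ubiquitin ligase. In human cells, lenalidomide and related drugs bind cereblon and direct the ligase to Ikaros and Aiolos, transcription factors on which myeloma cells depend. The RNA levels of the mouse genes do not measure a response to these drugs. CD138 and TACI were themselves the sort gate, so the levels of Sdc1 and Tnfrsf13b were measured in cells selected for these proteins.

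Libraries held 54.1 M to 97.6 M reads assigned to transcripts, of which immunoglobulin genes took 43.9 to 73.0%. The transgenes were present as labelled. Ccnd1 averaged 303 CPM (read counts relative to library size, scaled by the TMM method) in the Ccnd1 libraries and 0.845 in Control(D), Nsd2 averaged 627 in MMSET and 3.33 in Control(M), and Ikbkb averaged 57.1 in Ikk2ca(D) and 27.4 in Control(D). All 10 plasma cell markers, among them Prdm1, Xbp1 and Jchain, had reads in every group, but their summed level differed between groups. It was 7523 to 19913 CPM in Ccnd1-Ikk2ca against 54374 to 100141 in Control(D), and 4594 to 6392 CPM in MMSET-Ikk2ca against 31269 to 41630 in Control(M), and most of it came from Jchain, the joining chain of secreted antibodies. The sum also lay below the control in Ikk2ca(D) (17361 to 47711 CPM), MMSET (7160 to 24325) and Ikk2ca(M) (6919 to 16678). Ccnd1, at 30472 to 119863, overlapped with Control(D). The ranges of Control(D) and Control(M) did not overlap. By edgeR's test 4 of the 10 plasma cell markers fell and 0 rose in Ccnd1-Ikk2ca, where 11.1% of all genes passed. In MMSET-Ikk2ca 4 fell and 1 rose, where 6.91% passed. The other markers of the list did not pass. Jchain fell by 2.97 (SE 0.47, adjusted p = 0.00134) and by 3.45 (SE 0.47, adjusted p = 0.000623) on the log2 scale, and Mzb1, a chaperone of antibody-secreting cells, by 1.59 (SE 0.29, adjusted p = 0.00199) and by 4.44 (SE 0.71, adjusted p = 0.00161). The summed level of 12 B cell markers was lower in the groups with both transgenes, at 187 to 268 CPM in Ccnd1-Ikk2ca against 348 to 549 in Control(D), and 188 to 305 CPM in MMSET-Ikk2ca against 400.0 to 900 in Control(M). MMSET libraries held 175 to 301 CPM of these markers. Of the 12, only Cr2 was at 0 reads in a whole group, Ccnd1-Ikk2ca. The summed level of 11 neutrophil markers had a median of 14.6 CPM in Ccnd1-Ikk2ca and 204 in Control(D), and of 4.26 in MMSET-Ikk2ca and 170 in Control(M). That of 11 monocyte and macrophage markers was 39.3 and 123, and 56.7 and 121. For 7 plasmacytoid dendritic cell markers it was 98.5 and 186, and 133 and 177. Medians of 6 basophil, eosinophil and mast cell markers went the other way, at 439 and 349 CPM, and 300 and 238. So did those of 8 erythroid markers, at 6.48 and 2.25, and 5.10 and 3.83. The ranges of both lists overlapped with those of the controls. Of the 6 basophil, eosinophil and mast cell markers, 4 had no reads in any Ccnd1-Ikk2ca library (Mcpt8, Epx, Cpa3 and Fcer1a). All 6 had reads in Control(D). In MMSET-Ikk2ca 3 had none (Epx, Cpa3 and Fcer1a), and in Control(M) 2 had none (Epx and Cpa3). Xist, transcribed in females, exceeded 10 CPM in 1 of 4 Control(D), 2 Ccnd1, 4 Ikk2ca(D) and 3 of 6 Ccnd1-Ikk2ca libraries, and in 2 Control(M), 3 MMSET, 4 Ikk2ca(M) and 3 of 6 MMSET-Ikk2ca libraries. In bulk RNA a smaller number of cells of a type and less RNA per cell cannot be told apart.

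In the mouse build GRCm38, Tnfrsf17 lies on chr16:11313812-11320074, Tnfrsf13b on chr11:61126755-61149372, Sdc1 on chr12:8771323-8793715, Slamf7 on chr1:171632403-171653035, Cd38 on chr5:43868553-43912375, Gprc5d on chr6:135105991-135118283, Fcrl5 on chr3:87435773-87500678, Crbn on chr6:106780201-106800077, Ikzf1 on chr11:11685003-11772926 and Ikzf3 on chr11:98464902-98546031. Crbn, on the minus strand, overlaps Trnt1 on the plus strand, and the libraries carry no strand information. RefSeq promoter windows of GRCm38.p6 were matched for 9 of the 10 genes, and Ikzf3 was the gene with no entry. Ikzf1 had 2 windows. The 250 bases before the start are printed for Tnfrsf17 (chr16:11313559-11313808, plus strand), whose RNA fell in the groups with both transgenes, and for Crbn (chr6:106800088-106800337, minus strand), whose RNA rose when Ikk2ca was added to Ccnd1. Capitals mark E-boxes (CANNTG) and, in Crbn, the Ikaros core motif TGGGAA on the opposite strand, whose letters overlap the first E-box.
Tnfrsf17: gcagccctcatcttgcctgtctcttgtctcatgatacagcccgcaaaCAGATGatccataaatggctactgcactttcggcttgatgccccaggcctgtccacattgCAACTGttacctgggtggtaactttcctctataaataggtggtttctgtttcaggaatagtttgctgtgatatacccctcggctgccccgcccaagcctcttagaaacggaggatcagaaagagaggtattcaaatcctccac
Crbn: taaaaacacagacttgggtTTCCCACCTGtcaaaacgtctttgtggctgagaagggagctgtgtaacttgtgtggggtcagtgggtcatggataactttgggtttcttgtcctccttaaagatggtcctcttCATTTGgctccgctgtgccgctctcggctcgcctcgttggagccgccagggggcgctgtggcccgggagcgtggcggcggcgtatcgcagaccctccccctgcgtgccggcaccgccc
The search covered both strands. The Tnfrsf17 window holds E-boxes at 203 and 143 bases before the start and no Ikaros core. In the Crbn window the Ikaros core lies 231 bases before the start, and E-boxes lie at 227 and 118 bases. In the windows of the 9 genes, E-boxes were found for 6 genes and the Ikaros core for 2, Crbn and Cd38. Over all 32851 RefSeq windows of this length, 66.2% hold an E-box and 21.6% the Ikaros core. No window of the 9 genes holds the NF-kappaB motif (kappaB), found in 3.90% of all windows, or the ETS-IRF composite motif, found in 2.30%. A match of letters is a description of the window and not a binding site.

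Levels of different genes were compared per length, as TPM, and by the median over all libraries 4 surface targets stood above the intracellular ones. The median over the 36 libraries was 85.3 TPM for Slamf7, 62.2 for Tnfrsf13b, 49.5 for Sdc1 and 27.0 for Tnfrsf17. Ikzf3 followed at 9.34 TPM, Crbn at 6.97 and Ikzf1 at 6.19. In MMSET-Ikk2ca alone Tnfrsf17 did not stand apart. Its mean there was 11.8 ± 7.97 TPM (SD, n = 6), with Ikzf3 at 10.9 ± 4.73 and Crbn at 10.4 ± 3.14. Cd38 was scarce at 0.564 TPM and Fcrl5 at 0.215, and the median of Gprc5d was 0. Short transcripts raise summed TPM. Counting only the transcript with most reads, Slamf7-201 had a median of 45.1 TPM, Sdc1-201 of 44.1 and Tnfrsf13b-201 of 34.7, so the order of the first 3 genes depends on how their transcripts are counted.

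Against their controls, the libraries with both transgenes held less RNA for BCMA and Ikaros in both cohorts. In Ccnd1-Ikk2ca against Control(D), 3 of the 9 members tested passed an adjusted p of 0.05 (edgeR's quasi-likelihood test, Benjamini-Hochberg over all genes), where 11.1% of 15323 genes passed: Tnfrsf17, Tnfrsf13b and Ikzf1, all lower. In MMSET-Ikk2ca against Control(M), 4 of 9 passed, where 6.91% of 15416 genes passed: Tnfrsf17, Cd38, Fcrl5 and Ikzf1, all lower. The median log2 fold change of the 9 members was -0.57 in the first comparison and -0.55 in the second, where that of all genes tested was 0.02 and 0.01. Adding Ikk2ca to Ccnd1 (Ccnd1-Ikk2ca against Ccnd1) changed 3 of 9 members, where 6.2% of genes passed: Tnfrsf17 and Tnfrsf13b fell and Crbn rose. Ccnd1 itself averaged 701 ± 253 CPM (SD, n = 6) in Ccnd1-Ikk2ca and 303 ± 53.8 (SD, n = 4) in Ccnd1. That difference did not pass edgeR's test (adjusted p = 0.150). Adding MMSET to Ikk2ca (MMSET-Ikk2ca against Ikk2ca(M)) changed 1 of 9, Tnfrsf17, which fell, where 0.96% of genes passed. The comparisons within a cohort share control libraries and are not independent.

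No member passed edgeR's test with a single transgene. For Ccnd1 against Control(D), 0 of 9 members passed and 0 had an unadjusted p under 0.05. Of 15323 genes, 0.00653% passed and 963 had such a p. For Ikk2ca(D) against Control(D) the counts of members were 0 and 3, where 0.437% of genes passed and 2045 had such a p. For MMSET against Control(M) they were 0 and 4, where 0.649% of 15416 genes passed and 2048 had such a p. For Ikk2ca(M) against Control(M) they were 0 and 2, where 0.649% passed and 1912 had such a p. DESeq2 called 0 members for Ccnd1, 0 for Ikk2ca(D), 3 for MMSET (Tnfrsf17, Ikzf1 and Ikzf3) and 1 for Ikk2ca(M) (Ikzf1), and limma voom called 0 in each of the 4 comparisons. The shares of all genes given here are those of edgeR, so the counts of the other methods cannot be read against them. Adding Ccnd1 to Ikk2ca(D) called 0 members, with 2 under an unadjusted p of 0.05. Of 15323 genes, 0.424% passed and 1737 were under that p. Adding Ikk2ca to MMSET likewise called 0, with 2 unadjusted, where 1.58% of 15416 genes passed and 2064 were under that p. DESeq2 and limma voom called 0 members in both. The interaction of Ccnd1 with Ikk2ca, the test of whether the pair differs from the sum of both on the log scale, called 0 members and had 0 unadjusted, where 0.0261% of genes passed. That of MMSET with Ikk2ca called 0 and had 2 unadjusted, where 0.0973% passed. An unadjusted p under 0.05 was held by 1051 of 15323 genes in the Ccnd1 interaction and 1605 of 15416 in the MMSET interaction. DESeq2 and limma voom called 0 members in both interactions.

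BCMA RNA was lower with both transgenes in each cohort. Tnfrsf17 stood at 79.9, 68.9, 78.3 and 55.6 CPM in the 4 Control(D) libraries and at 97.3, 70.0, 72.3 and 30.8 in Ccnd1. Ikk2ca(D) libraries held 69.3, 46.3, 69.2 and 49.4 CPM, and those of Ccnd1-Ikk2ca ran from 13.4 to 44.1 with a median of 36.8. All 6 Ccnd1-Ikk2ca libraries lay below all 4 of Control(D) and all 4 of Ikk2ca(D), while 1 Ccnd1 library, at 30.8, fell within their range. The log2 fold change of Ccnd1-Ikk2ca was -1.11 (SE 0.29, adjusted p = 0.0173, edgeR) against Control(D) and -1.06 (SE 0.29, adjusted p = 0.0337) against Ccnd1. In the M cohort, Tnfrsf17 stood at 60.9, 44.1, 55.7 and 71.5 CPM in Control(M), 28.5, 13.2, 11.4 and 37.7 in MMSET, and 37.9, 57.8, 28.2 and 39.8 in Ikk2ca(M). In MMSET-Ikk2ca it ran from 6.17 to 22.1 CPM with a median of 14.5, below every library of Control(M) and of Ikk2ca(M). All 4 MMSET libraries also lay below all 4 of Control(M), but the log2 fold change of -1.36 (SE 0.39) did not pass (adjusted p = 0.134). MMSET-Ikk2ca differed by -2.01 (SE 0.35, adjusted p = 0.00164) from Control(M), by -1.49 (SE 0.35, adjusted p = 0.0448) from Ikk2ca(M) and by -0.65 (SE 0.35, adjusted p = 0.453) from MMSET. Ranked by mean, the groups ran from Control(D) at 70.7 ± 11.2 (SD, n = 4) and Ccnd1 at 67.6 ± 27.5 (SD, n = 4) down to MMSET-Ikk2ca at 14.5 ± 6.2 (SD, n = 6), and among the 7 pairs of neighbours in that order only Control(M) and Ikk2ca(M) differed by more than the larger SD of the pair.

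The call against Control(M) held in all 18 fits that left out a library of the cohort. Against Control(D) the adjusted p rose to 0.0522 without Control(D) 1 and to 0.0503 without Control(D) 3. Against Ccnd1 it rose to 0.160 without Ccnd1 1, 0.0836 without Ccnd1 2, 0.0881 without Ccnd1 3, 0.0751 without Ccnd1-Ikk2ca 5 and 0.0596 without Ccnd1-Ikk2ca 6. Against Ikk2ca(M) it lay above 0.05, between 0.0547 and 0.151, without Control(M) 1, 3 or 4, Ikk2ca(M) 1, 2 or 4, or MMSET-Ikk2ca 1, 2, 3 or 5. Of 10 other settings of the fit, the call passed in 10 against Control(M), 8 against Control(D), 6 against Ikk2ca(M) and 4 against Ccnd1. With the level of Xist as a covariate, an alternative added after the data had been seen, the adjusted p was 0.154 against Ikk2ca(M) and 0.0558 against Ccnd1, and without the filter on low counts it was 0.0806 and 0.0596. The call against Ccnd1 was also lost with all 36 libraries in 1 fit (0.0614) and with only the groups compared (0.0895). The summed plasma cell, B cell, neutrophil, monocyte and plasmacytoid dendritic cell markers also had lower medians with both transgenes than in the controls. That of the plasma cell markers was also lower in Ikk2ca(D), MMSET and Ikk2ca(M). Medians of basophil, eosinophil and mast cell markers and of erythroid markers were higher with both transgenes. The part of all these markers in these results and in those of the other targets was not tested.

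TACI RNA was lower with both transgenes in the D cohort, and a fall of near the same size in the M cohort missed the threshold in edgeR. Tnfrsf13b stood at 292, 326, 337 and 294 CPM in Control(D), at 428, 343, 280 and 263 in Ccnd1, and at 162, 207, 230 and 257 in Ikk2ca(D). Ccnd1-Ikk2ca libraries ran from 149 to 242 CPM with a median of 222. All libraries with Ikk2ca in this cohort lay below all 4 of Control(D), and those of Ccnd1-Ikk2ca also below all of Ccnd1. Tnfrsf13b fell by 0.57 on the log2 scale (SE 0.16, adjusted p = 0.0290) against Control(D) and by 0.65 (SE 0.16, adjusted p = 0.0212) against Ccnd1. The first call was lost, at adjusted p values of 0.05004 to 0.0782, when any 1 of the 4 Control(D) libraries or Ccnd1-Ikk2ca 3 was left out, at 0.0558 without the filter on low counts and at 0.0502 with Xist as a covariate, and the second was lost without Ccnd1 1 (0.113) or Ccnd1 2 (0.0629), and with only the groups compared (0.0519). The 4 Control(M) libraries held 217, 307, 245 and 309 CPM, and MMSET held 157, 187, 196 and 290. Ikk2ca(M) held 193, 244, 210 and 255 CPM, and MMSET-Ikk2ca ran from 152 to 217 with a median of 193. All 6 MMSET-Ikk2ca libraries lay below all 4 of Control(M), with a log2 fold change of -0.54 (SE 0.16) that just missed the threshold in edgeR (adjusted p = 0.0555). DESeq2 gave an adjusted p of 0.0116 and limma voom of 0.0331 for the same comparison. It passed in 8 of 10 other settings and in 3 of 18 fits with a library left out. The call of Ccnd1-Ikk2ca against Control(D) passed in 6 and in 13. The effect of both transgenes in the M cohort minus that in the D cohort was 0.04 (SE 0.24, unadjusted p = 0.861, edgeR).

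**Figure D1:**
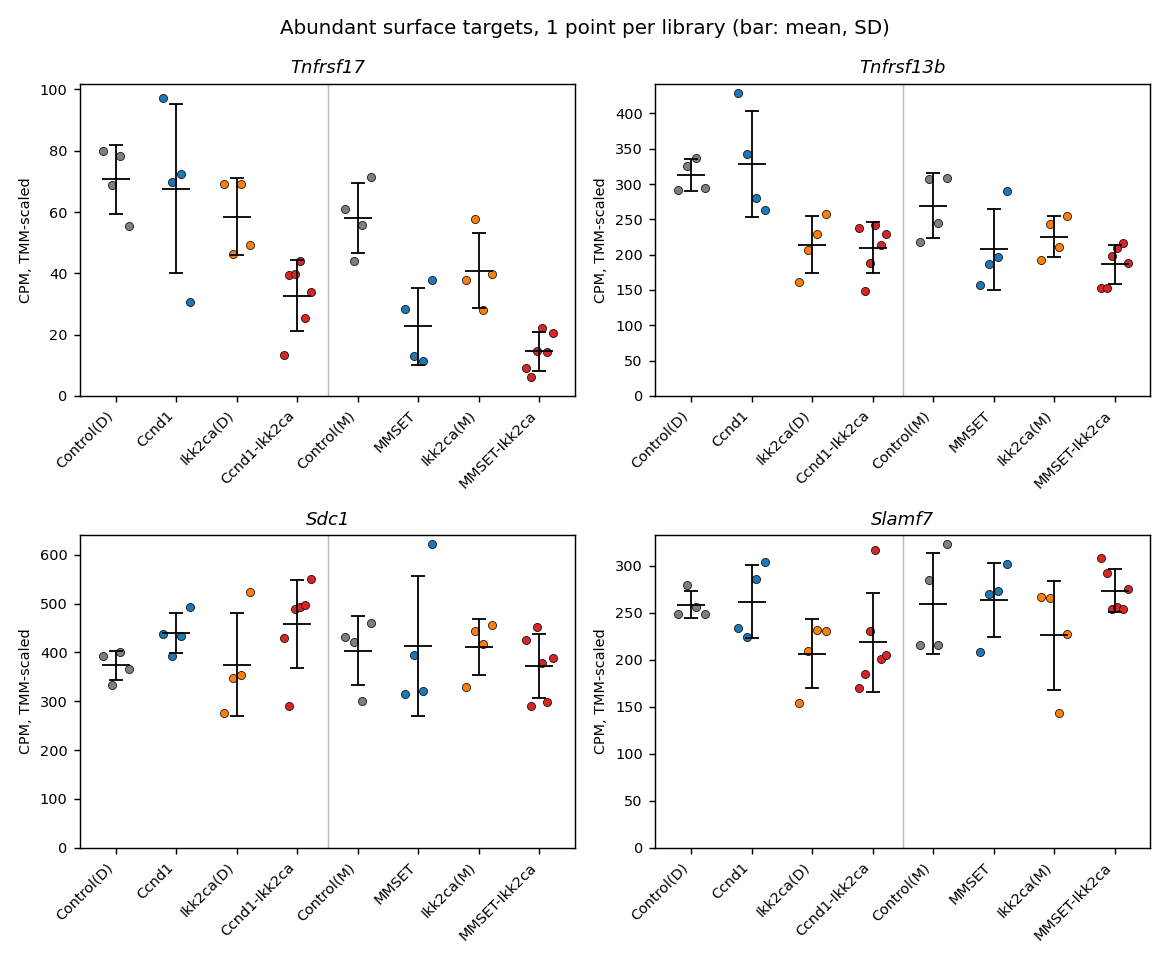
CPM of 4 surface targets in each library (points) by group, with the mean (wide bar) and SD (whiskers), and the D cohort left of the grey line. Tnfrsf17 is lowest in MMSET-Ikk2ca, at 6.17 to 22.1 CPM, while the Sdc1 values of every transgenic group overlap with those of its control.

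The other abundant surface targets did not pass in any comparison. Sdc1 stood at 393, 334, 401 and 365 CPM in Control(D) and ran from 291 to 551 with a median of 492 in Ccnd1-Ikk2ca. Its log2 fold change was 0.30 (SE 0.17, adjusted p = 0.313). In Control(M) it stood at 431, 421, 300.3 and 461 CPM, and in MMSET-Ikk2ca it ran from 290 to 452 with a median of 383, a log2 fold change of -0.12 (SE 0.19, adjusted p = 0.802). The widest group was MMSET, with Sdc1 at 315, 395, 322 and 622 CPM. Slamf7, a self-binding receptor of the SLAM family, stood at 248.8, 280, 257 and 249 CPM in Control(D) and ran from 170 to 317 with a median of 203 in Ccnd1-Ikk2ca (log2 fold change -0.24, SE 0.16, adjusted p = 0.394). In Control(M) it stood at 215, 285, 215 and 323 CPM, and in MMSET-Ikk2ca it ran from 254 to 308 with a median of 266 (log2 fold change 0.07, SE 0.17, adjusted p = 0.893). All 4 Ikk2ca(D) libraries, at 154, 210, 231 and 231 CPM, lay below all 4 of Control(D), and the log2 fold change of -0.32 (SE 0.18) did not pass (adjusted p = 0.477). Neighbouring group means of Sdc1, of Slamf7 and of Tnfrsf13b differed by less than the larger SD of each pair.

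CD38 is an enzyme that consumes NAD, and its RNA varied widely within groups. Cd38 stood at 25.6, 10.3, 3.06 and 30.3 CPM in Control(D), at 7.94, 9.71, 6.39 and 9.11 in Ccnd1, and at 27.2, 2.48, 6.68 and 0.0324 in Ikk2ca(D). In Ccnd1-Ikk2ca it ran from 0 to 5.94 CPM with a median of 0.121. The highest Ccnd1-Ikk2ca library lay above the lowest of Control(D), so these ranges overlap in 1 library of each. The log2 fold change of -3.84 (SE 1.52) did not pass (adjusted p = 0.124). Among M libraries Cd38 stood at 20.0, 10.04, 52.7 and 22.9 CPM in Control(M), 19.7, 0, 4.69 and 2.90 in MMSET, and 8.44, 1.05, 1.55 and 6.07 in Ikk2ca(M). MMSET-Ikk2ca libraries ran from 0 to 2.80 CPM with a median of 0.608, all below the 4 of Control(M). Cd38 fell by 4.92 on the log2 scale (SE 1.35, adjusted p = 0.0394). This call passed in only 5 of 18 fits with a library left out, and the adjusted p reached 0.1003 without Control(M) 3, the library with the highest value, and 0.0808 without MMSET-Ikk2ca 2. Control(M) 3 also held 900 CPM of B cell markers, where the other 3 controls held 400.0 to 509, and the part of these cells in the Cd38 and Fcrl5 values was not tested. It passed without MMSET 1, MMSET 2, Ikk2ca(M) 1, Ikk2ca(M) 2 or MMSET-Ikk2ca 6. The adjusted p was 0.0805 without the filter on low counts.

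Fcrl5 was scarcer still. It stood at 3.72, 1.90, 0.372 and 8.33 CPM in Control(D) and ran from 0.0701 to 1.99 with a median of 1.01 in Ccnd1-Ikk2ca, ranges that overlap (log2 fold change -1.83, SE 0.95, adjusted p = 0.246). Among M libraries it stood at 4.21, 0.660, 14.9 and 0.174 CPM in Control(M), 4.07, 0.811, 0.406 and 0.991 in MMSET, and 2.43, 3.46, 8.98 and 5.12 in Ikk2ca(M). MMSET-Ikk2ca libraries ran from 0 to 0.472 CPM with a median of 0.139 and overlapped with Control(M), whose lowest library held 11 reads. Fcrl5 fell by 4.67 on the log2 scale (SE 1.22, adjusted p = 0.0269) against Control(M). The adjusted p was 0.162, with a fold change of -3.10, without Control(M) 3, and the call was also lost without MMSET-Ikk2ca 1 (0.0558) or MMSET-Ikk2ca 2 (0.0559), and with only the groups compared (0.0717). Against Ikk2ca(M), all 6 MMSET-Ikk2ca libraries lay lower and the log2 fold change was -4.66 (SE 1.22, adjusted p = 0.0738), while DESeq2 gave an adjusted p of 0.00111 and limma voom of 0.0139.

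Gprc5d was near the limit of detection. It had 108 reads in Control(D) 3, 34 in Ccnd1 1, 27 in MMSET-Ikk2ca 1, 28 in MMSET-Ikk2ca 3 and 134 in MMSET-Ikk2ca 5, a single read in Ccnd1-Ikk2ca 4 and in Ikk2ca(M) 4, and 0 in the other libraries. No group had reads in all of its libraries, and in Ikk2ca(D), Control(M) and MMSET there were none. A count of 0 over the 4 MMSET libraries allows up to 3 reads, or 0.0136 CPM, for counting error only. The gene did not pass the filter on low counts within a cohort and has no value in the tests by cohort. Without the filter, and with all 36 libraries in 1 fit, it was called lower in the D libraries with Ikk2ca than in those without it (adjusted p = 0.0487 and 0.0306), a difference that rests on the reads of Control(D) 3 and Ccnd1 1. No other comparison within a cohort called it in the settings that gave it a value.

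**Figure D2:**
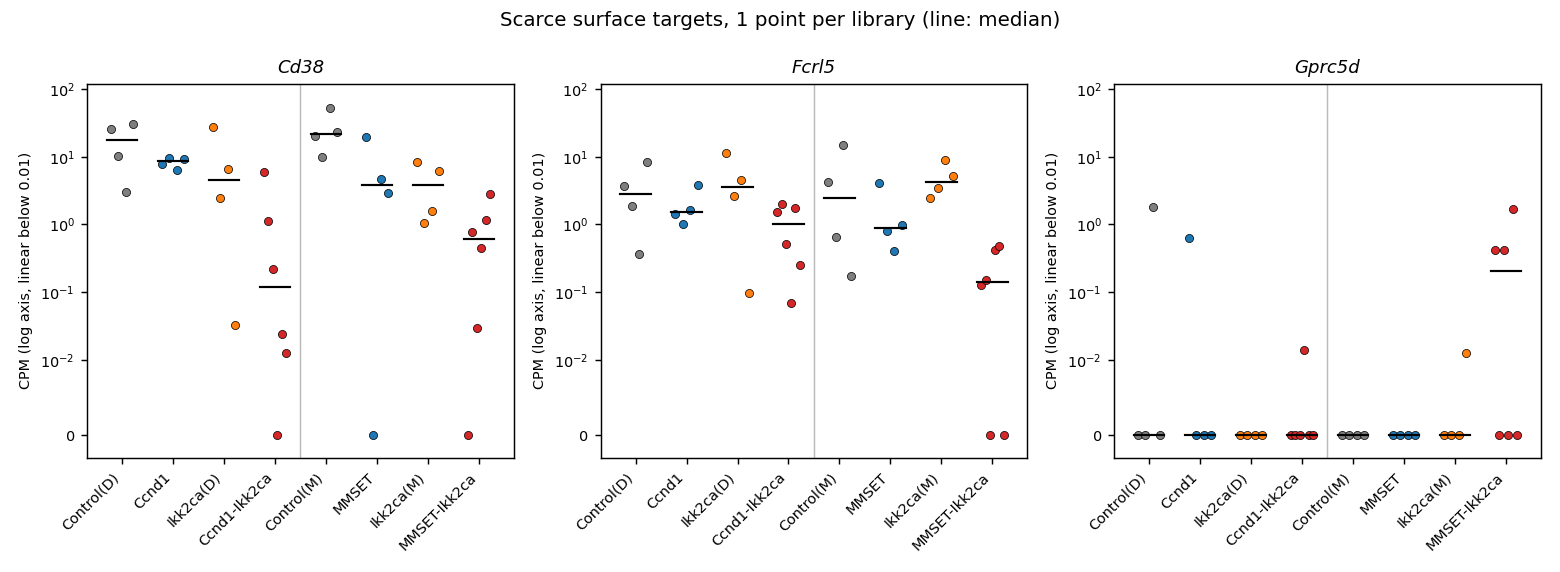
CPM of the 3 scarce surface targets in each library (points) by group, on an axis that is logarithmic above 0.01 and linear below it, with the group median (line). Cd38 lies between 0 and 2.80 CPM in MMSET-Ikk2ca and at 10.04 or more in Control(M), and most Gprc5d values are 0.

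Cereblon was the only target that edgeR's test called higher in any comparison. Crbn stood at 33.6, 35.7, 21.0 and 39.1 CPM in Control(D) and at 33.4, 27.3, 16.4 and 25.9 in Ccnd1. Ikk2ca(D) libraries held 55.1, 59.5, 47.6 and 37.0 CPM, and Ccnd1-Ikk2ca ran from 35.4 to 68.1 with a median of 46.8. All 6 Ccnd1-Ikk2ca libraries lay above all 4 of Ccnd1, and Crbn rose by 0.92 on the log2 scale (SE 0.23, adjusted p = 0.0203). The adjusted p of this call was 0.0750 without Ccnd1 3, which held the lowest value. Against Control(D) the fold change of Ccnd1-Ikk2ca was 0.60 (SE 0.23, adjusted p = 0.0911) and that of Ikk2ca(D) 0.62 (SE 0.24, adjusted p = 0.264). Crbn in the M cohort stood at 26.8, 29.7, 46.7 and 28.7 CPM in Control(M), 41.7, 23.5, 45.9 and 51.4 in MMSET, and 49.4, 58.6, 67.4 and 44.1 in Ikk2ca(M). MMSET-Ikk2ca ran from 41.2 to 56.2 CPM with a median of 45.7, and Control(M) 3, at 46.7, was the control library within that range. The log2 fold change was 0.51 (SE 0.20, adjusted p = 0.142) for MMSET-Ikk2ca and 0.73 (SE 0.22, adjusted p = 0.176) for Ikk2ca(M). Trnt1, which overlaps Crbn on the other strand and had a median of 1939 reads where Crbn had 2855, had a log2 fold change of 0.26 (adjusted p = 0.480) in Ccnd1-Ikk2ca and 0.09 (adjusted p = 0.902) in MMSET-Ikk2ca against the controls. Crbn was not called in either of these comparisons, and no Trnt1 value is given for those in which it was.

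A comparison of all libraries with Ikk2ca against all without it in a cohort, averaged over the second transgene, was added after the values of Crbn had been seen. In the D cohort 3 of 9 members passed, where 10.6% of genes passed. Crbn rose by 0.77 (SE 0.17, adjusted p = 0.00597), Tnfrsf13b fell by 0.60 (SE 0.12, adjusted p = 0.00427) and Ikzf1 fell by 0.45 (SE 0.13, adjusted p = 0.0288). The calls of Crbn and Tnfrsf13b held in all 18 fits that left out a library, and that of Ikzf1 in 11. The Ikzf1 call was lost without the filter on low counts (0.0541) and with Xist as a covariate (0.0863), and by library with adjusted p values of 0.0504 to 0.0763 without Control(D) 1, 2 or 3, Ccnd1 1 or 2, or Ikk2ca(D) 2 or 4. In the M cohort 0 of 9 passed edgeR's test and 4 had an unadjusted p under 0.05. Of 15416 genes, 2.95% passed and 2509 had such a p. DESeq2 and limma voom called 0 there too. Crbn had a log2 fold change of 0.47 (SE 0.15, adjusted p = 0.101).

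Ikaros RNA was lower with both transgenes in each cohort, and the call in the M cohort depended on the settings. Ikzf1 stood at 90.6, 83.5, 76.5 and 56.2 CPM in Control(D), 77.7, 70.5, 57.2 and 44.97 in Ccnd1, and 64.2, 57.3, 62.6 and 44.4 in Ikk2ca(D). Ccnd1-Ikk2ca ran from 36.7 to 51.9 CPM with a median of 47.5, below all of Control(D). Ikzf1 fell by 0.76 on the log2 scale (SE 0.17, adjusted p = 0.00781), a call that held in all 18 fits with a library left out. In the M cohort it stood at 59.1, 60.9, 64.4 and 89.4 CPM in Control(M), 47.5, 43.3, 36.2 and 48.0 in MMSET, and 51.7, 40.5, 44.9 and 41.4 in Ikk2ca(M). MMSET-Ikk2ca ran from 35.9 to 58.0 CPM with a median of 46.3. All libraries with a transgene lay below all 4 of Control(M). Ikzf1 fell by 0.55 in MMSET-Ikk2ca (SE 0.16, adjusted p = 0.0388). The fold changes for MMSET, -0.65 (SE 0.17, adjusted p = 0.0998), and for Ikk2ca(M), -0.63 (SE 0.17, adjusted p = 0.122), were as large and did not pass. The MMSET-Ikk2ca call passed in 6 of 18 fits with a library left out, and the fold change was -0.39 with an adjusted p of 0.169 without Control(M) 4, the highest control. It was kept without MMSET 1, MMSET 3, Ikk2ca(M) 1, Ikk2ca(M) 4, MMSET-Ikk2ca 2 or MMSET-Ikk2ca 5. It passed in 5 of 10 other settings, and the adjusted p was 0.0533 in limma voom, 0.0860 without the filter on low counts and 0.0777 with only the groups compared.

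Aiolos showed no call in edgeR. Ikzf3 stood at 80.1, 67.9, 49.1 and 60.8 CPM in Control(D) and ran from 38.2 to 73.9 with a median of 64.5 in Ccnd1-Ikk2ca, with a log2 fold change of -0.12 (SE 0.23, adjusted p = 0.828). In Control(M) it stood at 64.4, 67.2, 119 and 91.6 CPM, and in MMSET at 38.7, 40.9, 47.9 and 33.6, all below the controls. The log2 fold change of MMSET was -1.09 (SE 0.27, adjusted p = 0.0664), and DESeq2 gave an adjusted p of 0.00479. MMSET-Ikk2ca ran from 28.4 to 70.6 CPM with a median of 51.0 and overlapped with Control(M) (log2 fold change -0.75, SE 0.24, adjusted p = 0.0647). Without MMSET-Ikk2ca 4, a library that enters only through the shared spread, the MMSET value passed (adjusted p = 0.0359).

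**Figure D3:**
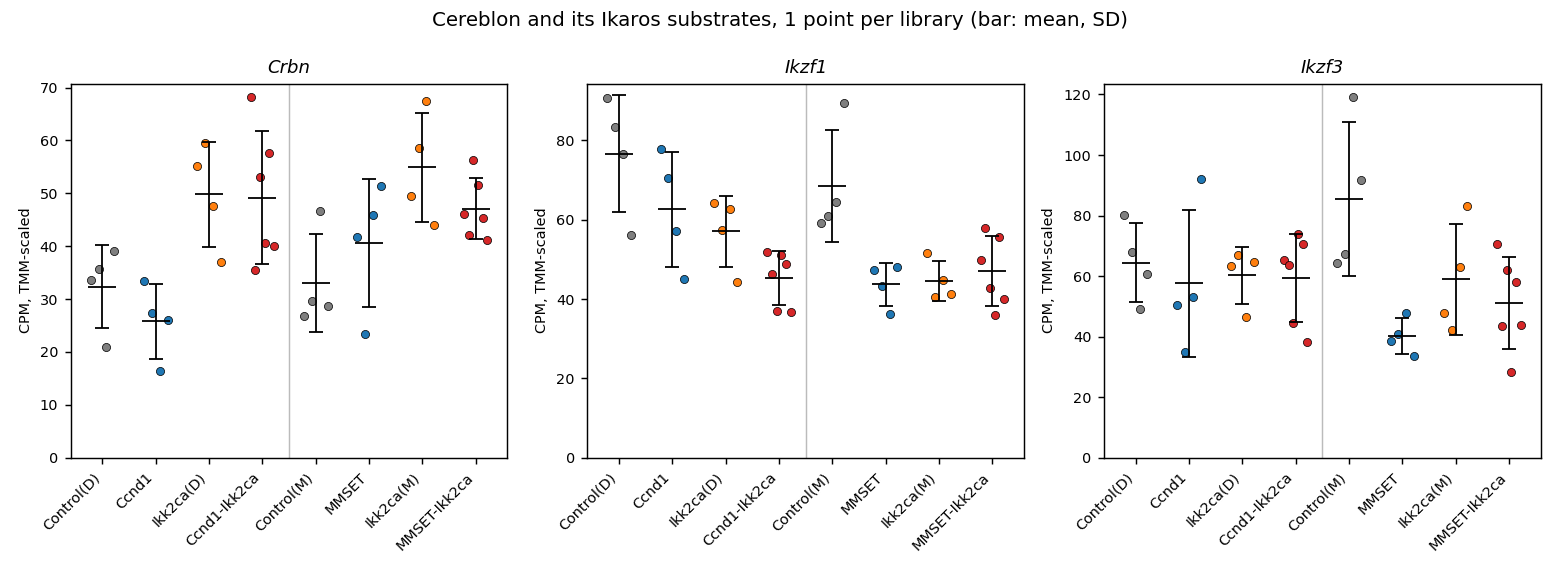
CPM of Crbn, Ikzf1 and Ikzf3 in each library (points) by group, with the mean (wide bar) and SD (whiskers), and the D cohort left of the grey line. Crbn lies between 35.4 and 68.1 CPM in Ccnd1-Ikk2ca, above the Ccnd1 group, while every Ikzf1 value with a transgene in the M cohort lies below the 4 of Control(M).

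**Figure D4:**
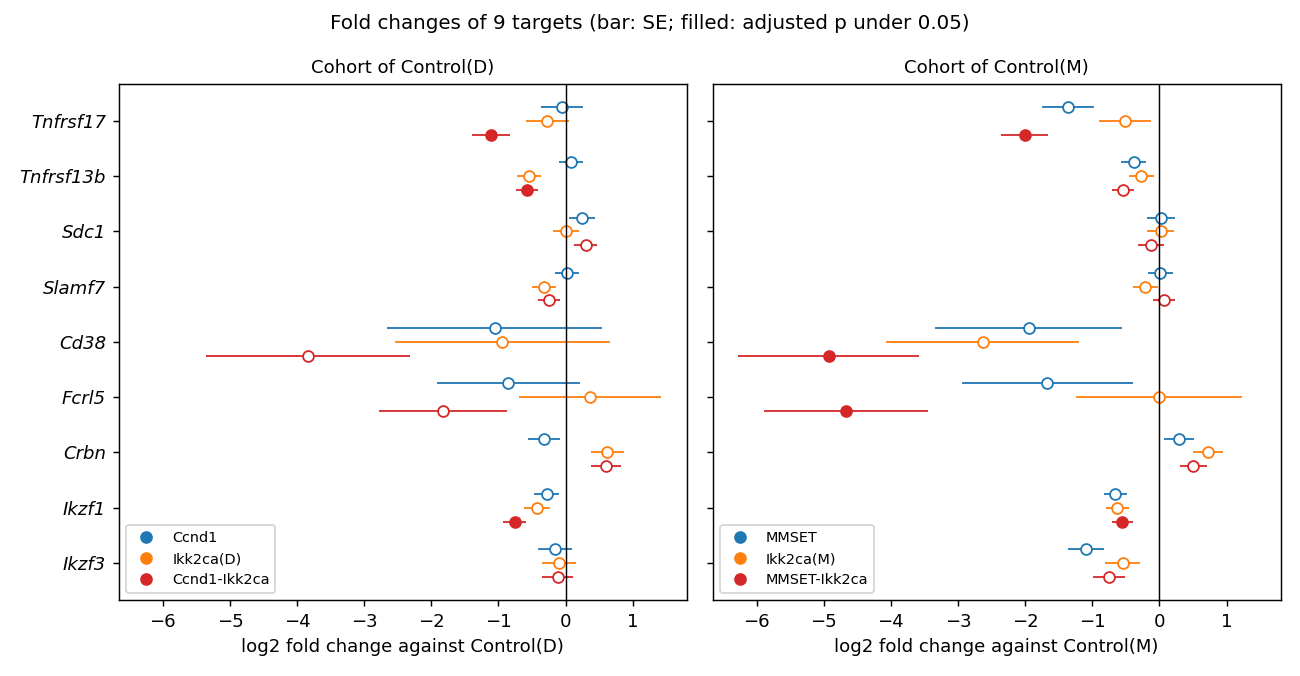
The log2 fold change of 9 targets against the control of their cohort (points) with its SE (bars), filled where the adjusted p from edgeR is under 0.05. Filled points are the 3 calls of Ccnd1-Ikk2ca and the 4 of MMSET-Ikk2ca, and the SE is widest for Cd38 and Fcrl5.

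The cohorts were compared in a fit of all 36 libraries. Between Control(M) and Control(D), 0 of 10 members passed edgeR's test and 1 had an unadjusted p under 0.05, where 0.0409% of 17116 genes passed. The difference of the Ikk2ca effect between the cohorts passed for 0 of 10 members, with 1 unadjusted, where 0% of genes passed. The effect of both transgenes together, MMSET-Ikk2ca in its cohort minus Ccnd1-Ikk2ca in its own, gave 0 of 10 and 1 unadjusted, where 0.175% of genes passed. Of the 17116 genes, 1780, 1079 and 1910 had an unadjusted p under 0.05 in these comparisons, in the order given. DESeq2 called 1 member in each of these 3 comparisons, Gprc5d, whose reads came from a few libraries, and limma voom called 0. For Tnfrsf17 the difference between the effects of both transgenes was -0.89 (SE 0.48, adjusted p = 0.512).

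Genes around each target were taken from lists, whose counts are read against the 11.1% of all genes called in Ccnd1-Ikk2ca and the 6.91% in MMSET-Ikk2ca against the controls. For BAFF and APRIL the share was near that of all genes. Of 21 genes of BAFF and APRIL signalling and BCMA shedding tested in the D cohort, 1 rose and 1 fell in Ccnd1-Ikk2ca against Control(D), and the median log2 fold change was -0.14. Relb, an NF-kappaB subunit, rose by 1.10 (SE 0.24, adjusted p = 0.00598), from 24.6 to 52.6 CPM on average, and Psen2, a catalytic subunit of the gamma-secretase that sheds BCMA, fell by 1.05 (SE 0.26, adjusted p = 0.0139). In MMSET-Ikk2ca 2 of 22 rose and 0 fell (median 0.29): Relb by 1.63 (SE 0.23, adjusted p = 0.000283) and Psenen, another gamma-secretase subunit, by 0.49 (SE 0.12, adjusted p = 0.0163). Relb also rose in Ikk2ca(D), by 1.35, and in Ikk2ca(M), by 1.29.

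Relatives of SLAMF7, FCRL5 and CD38 were called more often than all genes in both comparisons, a description of the counts with no test. Among 12 SLAM family and adaptor genes, 1 rose and 4 fell in Ccnd1-Ikk2ca (median -1.71), and among 11 in MMSET-Ikk2ca 1 rose and 4 fell (median -1.27). Cd48, a SLAM family ligand, fell by 1.65 (SE 0.20, adjusted p = 5.18e-05) and by 2.02 (SE 0.35, adjusted p = 0.00158), and Slamf6 averaged 22.7 CPM in Control(D), 3.73 in Ccnd1-Ikk2ca, 16.1 in Control(M) and 0.137 in MMSET-Ikk2ca. Of the FCRL family and its phosphatases, 3 of 5 fell in Ccnd1-Ikk2ca (Fcrla, Fcrl1 and Ptpn11, median -1.27) and 2 of 4 in MMSET-Ikk2ca (Fcrla and Ptpn11, median -0.87). Among 14 NAD and adenosine enzymes around CD38, 1 rose and 3 fell in Ccnd1-Ikk2ca (median -0.10), and among 13 in MMSET-Ikk2ca 1 rose and 2 fell (median -0.05). Nt5e, the ectoenzyme CD73 that makes adenosine, averaged 3.68 CPM in Control(D) and 0.00685 in Ccnd1-Ikk2ca, and 3.53 in Control(M) where all MMSET-Ikk2ca libraries were at 0 reads. Of 19 syndecan and heparan sulfate genes, 1 fell in Ccnd1-Ikk2ca (median -0.15), a share under that of all genes, and 1 rose and 2 fell in MMSET-Ikk2ca (median 0.16). Sdc4 fell in both, by 1.69 (SE 0.29, adjusted p = 0.0016) and by 1.17 (SE 0.26, adjusted p = 0.00923). Of the 2 relatives of Gprc5d tested, Gprc5a passed in the M cohort. It had 0 reads in all Control(M) libraries and 0.758 to 2.58 CPM in MMSET-Ikk2ca, and it also passed in MMSET (1.26 to 2.02 CPM) and Ikk2ca(M) (0.0157 to 2.001 CPM).

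None of the 25 genes of the CRL4 ligase and its regulators passed edgeR's test against the control of either cohort with both transgenes, with medians of 0.02 and 0.08, and 3 had an unadjusted p under 0.05 in each. Among all genes, 3863 of 15323 in Ccnd1-Ikk2ca and 3365 of 15416 in MMSET-Ikk2ca had such a p against the control. In Ccnd1-Ikk2ca against Ccnd1, Cops5, a subunit of the COP9 signalosome, rose by 0.86 (SE 0.20, adjusted p = 0.0159). Of other cereblon substrates and partners, 0 of 10 passed in Ccnd1-Ikk2ca (median 0.05, 2 with an unadjusted p under 0.05) and 1 of 9 in MMSET-Ikk2ca (median 0.08), Slc16a1, a lactate transporter, which averaged 1.62 CPM in Control(M) and 0.00262 in MMSET-Ikk2ca. Of 12 genes of the Ikaros family, its partners and the IRF4-MYC axis, 2 rose and 1 fell in Ccnd1-Ikk2ca (median -0.08), a share above the 11.1% of all genes, and 0 passed in MMSET-Ikk2ca (median -0.03, 2 with an unadjusted p under 0.05). Mta2, a subunit of the NuRD complex, rose by 0.69 (SE 0.15, adjusted p = 0.00544). Among 28 other drug and antibody targets in myeloma, 9 rose and 4 fell in Ccnd1-Ikk2ca (median 0.23), and 6 rose and 2 fell in MMSET-Ikk2ca (median 0.11). Icam1, an adhesion receptor, rose by 2.87 (SE 0.30, adjusted p = 2.05e-05) and by 2.60 (SE 0.38, adjusted p = 0.000531), from 26.6 to 195 CPM and from 37.6 to 230 CPM on average. Cd274 (PD-L1) and the apoptosis inhibitor Bcl2l1 rose in Ccnd1-Ikk2ca, by 1.42 (SE 0.30, adjusted p = 0.00519) and 1.63 (SE 0.35, adjusted p = 0.00597). In MMSET-Ikk2ca, Cd74, the invariant chain, rose by 1.43 (SE 0.19, adjusted p = 0.000163), Cd40 rose by 2.06 (SE 0.38, adjusted p = 0.00232), and Cd200 averaged 0.00232 CPM against 10.2 in Control(M).

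Genes whose level followed a target most closely over the 36 libraries were ranked by Pearson r of log2 CPM among 5649 genes, as a description across libraries that share groups and depth. Tnfrsf17 was followed by Txndc5 (r = 0.887), Ptprcap (0.851) and Cd79a (0.846), and Tnfrsf13b by Cd79b (0.811), Ell2 (0.791) and Pqlc3 (0.769). The nearest genes to Cd38 were Coro1a (0.830), Tmsb4x (0.822) and H2-Aa (0.799), and those to Ikzf1 were Eif4enif1 (0.815), Cpeb2 (0.803) and Tcp11l2 (0.799). Crbn was followed by Tmc6 (0.756), Foxp1 (0.746) and Gpx4 (0.726), Sdc1 by Ptpn18 (0.694), Slamf7 by Lman1 (0.694) and Ikzf3 by Mtpap (0.615). Among the 45 pairs of the 10 targets, the highest r over 36 libraries was 0.642, between Tnfrsf17 and Tnfrsf13b, and within groups it was 0.291. Tnfrsf13b and Sdc1, both sort markers, had an r of 0.4001 over all libraries and 0.584 within groups. Crbn had an r of -0.420 with Tnfrsf13b and -0.386 with Ikzf1 over all libraries, and 0.176 and 0.0987 within groups.

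Transcript usage was compared for the 6 targets with at least 2 transcripts above 5% of their reads. The main transcript took 91.5% of the reads of Sdc1 on average, 83.0% of Ikzf3, 63.7% of Crbn, 44.9% of Ikzf1 and 43.1% of Slamf7, and Tnfrsf17 had a single annotated transcript of 815 bases in 3 exons. Of 33 comparisons with a control, 0 passed an adjusted p of 0.05 in a two-sided exact permutation test and 5 had an unadjusted p under 0.05. The smallest p that 6 libraries against 4 can give is 0.00952, and 4 against 4 cannot go below 0.0286. For Fcrl5, with 3 or 4 libraries to a group, the limit is higher. After adjustment over the 33 comparisons, a single one at its limit could not pass, so the absence of calls does not show equal usage. The share of Slamf7-201 was 39.2% ± 3.57 (SD, n = 6) in Ccnd1-Ikk2ca and 45.1% ± 1.36 (SD, n = 4) in Control(D), with an adjusted exact p of 0.236. It was 40.3% ± 1.91 (SD, n = 6) in MMSET-Ikk2ca and 47.1% ± 4.52 (SD, n = 4) in Control(M), again with an adjusted exact p of 0.236.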

How the data were processed

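The 36 deposited tables give, for each of 140825 transcripts, an estimated count, a TPM value and lengths, made by the authors with Salmon 1.3.0 on GRCm38, per the submitters' processing notes, which also name bcl2fastq 2.20.0.422 and DESeq2 1.32.0. Per the labels' protocols, cDNA was primed on poly(A), extended by template switching and amplified, with no molecular identifiers or strand marking, so PCR copies count as reads. The annotation release is not given in the sources used here.

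Transcripts were assigned to genes with GENCODE vM21. 139960 matched, and the other 865 held 0.0636 to 0.134% of reads and were left out. The deposited estimated counts were summed per gene and rounded. The main test was edgeR 4.0.16 (quasi-likelihood, robust, TMM, filterByExpr, R 4.3.3), two-sided, with the 18 libraries of a cohort or, across cohorts, all 36 in 1 fit. Genes passed at a Benjamini-Hochberg adjusted p of 0.05. Each SE was obtained as the ratio of the log2 fold change to the root of its F statistic. The deposited TPM values were summed per gene to compare levels between genes. The shares of transcripts were tested where a gene had at least 50 reads. The edgeR step was checked on simulated data. DESeq2 1.42.0, limma 3.58.1 (voom), other scalings and filters, the replicate number as a block and each library left out were alternatives. Genes named from lists were up to 4 called ones with the smallest p, and genes named for likeness had an average log2 CPM of at least 3, for targets of at least 1. The targets and lists were chosen with earlier results of these data known.

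Replicate numbers were tested for pairing: the deviations of libraries with the same number had a median correlation of 0.035 in the D cohort (4 of 24 pairs over 0.1) and 0.061 in the M cohort (8 of 24), so numbers were not treated as pairs. No 2 libraries held identical values. Counting intervals do not cover the spread between libraries.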

Additional observations from a re-analysis of the deposited data

Results flagged for a closer look

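In each of the 80 sets of values formed by a target and a group, the highest and lowest libraries were compared with the rest by Dixon's ratio, which flags about 1 group in 20 by chance. It flagged 8. Cd38 stood at 5.94 CPM in Ccnd1-Ikk2ca 1, where the next library held 1.12. Fcrl5 stood at 4.07 CPM in MMSET 1, where the next held 0.991. Crbn stood at 46.7 CPM in Control(M) 3, where the next held 29.7, and this control library also held the highest Cd38, Fcrl5 and Ikzf3 of its group. Gprc5d, with most libraries at 0, gave the other 5: 1.67 CPM in MMSET-Ikk2ca 5, where the next held 0.425, 1.83 in Control(D) 3, 0.637 in Ccnd1 1, 0.0128 in Ikk2ca(M) 4 and 0.0140 in Ccnd1-Ikk2ca 4. The values of 0.0140 and 0.0128 are single reads.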

How the results depend on the processing

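No call of a target changed direction under any alternative. The counts of calls below are given without the share of all genes in the same fit, so they describe the targets only. The replicate block, fitted although the numbers do not pair the libraries, left 1 call in Ccnd1-Ikk2ca against Control(D), 1 against Ccnd1, 2 in MMSET-Ikk2ca against Control(M) and 0 against Ikk2ca(M), and the same counts, 1, 1, 2 and 0, with the block limited to replicates 1 to 4. In these 2 fits the adjusted p of Tnfrsf17 was 0.116 and 0.120 against Control(D), 0.193 and 0.203 against Ccnd1, and 0.0512 and 0.0534 against Ikk2ca(M). That of Tnfrsf13b was 0.0805 and 0.0852 against Control(D) and 0.0731 and 0.0825 against Ccnd1, and in MMSET-Ikk2ca against Control(M) it was 0.114 and 0.111 for Cd38, 0.180 and 0.176 for Fcrl5 and 0.105 and 0.102 for Ikzf1. With only the groups compared in the fit, Ccnd1-Ikk2ca against Ccnd1 kept 1 call. Without a filter on low counts, MMSET-Ikk2ca had 2 calls against Control(M) and 0 against Ikk2ca(M), where Xist as a covariate also gave 0 and DESeq2, limma voom and the fit of all 36 libraries gave 2. DESeq2 called 3 targets for MMSET, 1 for Ikk2ca(M), and 1 each, Gprc5d, for Control(M) against Control(D) and for the differences between cohorts in the Ikk2ca effect and in the effect of both transgenes. For the average Ikk2ca effect in the D cohort limma voom called 5. With each library left out, calls ran from 1 to 4 for Ccnd1-Ikk2ca against Control(D), 1 to 4 against Ccnd1, 1 to 5 for MMSET-Ikk2ca against Control(M), 0 to 1 against Ikk2ca(M), 0 to 1 for MMSET, and 2 to 5 and 0 to 1 for the average Ikk2ca effect in the D and M cohorts. In every other comparison these fits called 0 targets. Leaving out immunoglobulin genes gave 3, 3, 5 and 1 calls in the first 4 comparisons. Tnfrsf17 in MMSET-Ikk2ca and Ikzf1 in Ccnd1-Ikk2ca, against control, passed under all alternatives run. Groups of 4 to 6 libraries limit the precision, and reads of Cd38, Fcrl5 and Gprc5d are too few in many libraries for small differences to be detected.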

Other observations

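Other genes of the lists passed the test in some comparisons (edgeR's quasi-likelihood test, log2 fold changes). Pecam1, which encodes CD31, a binding partner of CD38, rose in MMSET-Ikk2ca by 2.04 (SE 0.31, adjusted p = 0.000674) against Control(M), by 2.08 (SE 0.32, adjusted p = 0.0019) against MMSET and by 1.53 (SE 0.31, adjusted p = 0.017) against Ikk2ca(M). It averaged 43.1 CPM there and 10.1 to 15.0 in the other groups of the cohort. Itgb7, an integrin chain that is itself a CAR T cell target, fell by 2.07 (SE 0.41, adjusted p = 0.0208) in MMSET-Ikk2ca against Ikk2ca(M). Sdc3 rose by 1.63 (SE 0.32, adjusted p = 0.00454) in MMSET-Ikk2ca against Control(M).

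In the D cohort, Il6st, the signalling chain of the interleukin-6 receptor, rose by 1.37 (SE 0.28, adjusted p = 0.0277) in Ikk2ca(D) and by 1.49 (SE 0.26, adjusted p = 0.00159) in Ccnd1-Ikk2ca. Slamf9 rose by 1.84 (SE 0.40, adjusted p = 0.0485) and by 1.55 (SE 0.37, adjusted p = 0.013) in the same groups. When Ikk2ca was added to Ccnd1, Tnfrsf13c, which encodes the BAFF receptor, fell by 0.67 (SE 0.18, adjusted p = 0.0315), Cd44 fell by 1.06 (SE 0.23, adjusted p = 0.00892), and the phagocytosis inhibitor Cd47 rose by 0.63 (SE 0.13, adjusted p = 0.00548).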
